A study of Mus musculus with 15 samples.

Results

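Superoxide and peroxide detoxifying enzymes were examined in mammary tissue of mice given BDE-47, a brominated flame retardant of the polybrominated diphenyl ether family. The 10 genes were chosen by name as the enzymes that act directly on superoxide or on peroxides, with thioredoxin as the reductant of the peroxiredoxins, and all 10 were found among 52526 genes in the expression values. They were Sod1, Sod2, Sod3, Cat, Gpx1, Gpx3, Gpx4, Prdx1, Prdx6 and Txn1. All 10 passed the filter on low values, a level of at least 1 CPM (counts per a fixed total of reads, the same for every library) in at least 7 mice, which left 9506 genes in the test.

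The left 4th mammary gland was taken from female nu/nu nude mice, which carry the Foxn1nu mutation and have no normal thymus, so that mature T cells are largely lacking in both groups. Subcutaneous osmotic pumps released BDE-47 to 7 mice (intended dose, 0.03 mg/kg/d) and the vehicle alone (PEG300 with 1%DMSO, labelled control) to 8 mice, from 8 weeks of age and for 16 weeks. One library of total RNA was made per mouse with QuantSeq 3′ FWD, which reads the 3′ end of each transcript, so the spread between libraries is a spread between animals. Nude mice also served a separate xenograft study, and the labels do not say which of these mice had a xenograft near the tissue.

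Superoxide dismutases convert superoxide to hydrogen peroxide and oxygen, and catalase, glutathione peroxidases and peroxiredoxins then reduce the peroxide. The glutathione peroxidases draw their electrons from glutathione and the typical peroxiredoxins from thioredoxin, which thioredoxin reductase restores with NADPH. The mammary fat pad is mostly adipose tissue crossed by epithelial ducts, and a bulk library mixes the RNA of these cells, so that fewer cells of a type and less RNA per cell cannot be told apart.

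Depth was 10.06 to 19.58 M reads per mouse, and 6929 to 12682 genes lay above the floor of 1 CPM, under which a gene is listed at 0. In all, 3 libraries stood apart by the markers of other tissues. In vehicle replicates 6 and 8, 8 B cell markers summed to 499.3 and 686.0 CPM, against 0 to 9.87 CPM in the other 13 mice, while 8 adipocyte markers summed to 556 and 1258 CPM, against 5395 to 35327 CPM in the others. In BDE-47 replicate 6, 7 skeletal muscle markers summed to 92715 CPM, against 44.5 to 180 CPM elsewhere, with the adipocyte markers at 5395 CPM. Luminal epithelial markers were above the floor in every mouse but summed to 39.7, 133 and 174 CPM in these 3 mice. In the other 12 they summed to 645 to 2011 CPM with vehicle and to 1725 to 3070 CPM with BDE-47. Vehicle replicate 8 held the lowest value of 5 of the 10 genes, and the differences of the 10 genes are therefore also given without these mice.

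The glutathione peroxidases of the set are selenoproteins, in which a TGA codon that would otherwise stop translation is read as selenocysteine at the active site. The stretches of their reference transcripts (GENCODE M39) around that codon are shown because they define these enzymes and because the last line, from a processed pseudogene of Gpx4, enters the Gpx4 measurement described further on. Capitals mark the selenocysteine codon, which is codon 47 of Gpx1 and codon 73 of Gpx3 and Gpx4, and the bases aligned to it in the pseudogene.
Gpx1-201: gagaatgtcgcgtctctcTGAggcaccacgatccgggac
Gpx3-201: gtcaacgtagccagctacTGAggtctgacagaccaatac
Gpx4-202: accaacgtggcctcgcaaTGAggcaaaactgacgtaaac
Gpx4-ps2-201: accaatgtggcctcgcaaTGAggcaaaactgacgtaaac

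None of the 10 genes differed between BDE-47 and vehicle by more than the spread between mice. Of the 10 genes, 0 passed an adjusted p of 0.05 in limma, and the same was true of 0% of the 9506 genes tested, where the lowest adjusted p was 0.982. At an unadjusted limma p under 0.05, 0 of the 10 genes were called, against 4.65% (442) of all genes tested. No gene of the set reached a 2-fold difference in mean level, against 26.3% of all genes tested, and 5 were higher with BDE-47 and 5 lower, against 49.1% and 50.9% of all genes. The median size of the log2 difference was 0.26 over the 10 genes and 0.58 over all genes tested, and the median signed difference was -0.02 over both. Of the 10 genes 8 were above the floor in all mice, against 2577 of the 9506 genes tested. The comparison with all genes was not matched for level or for values at 0.

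**Figure D1:**
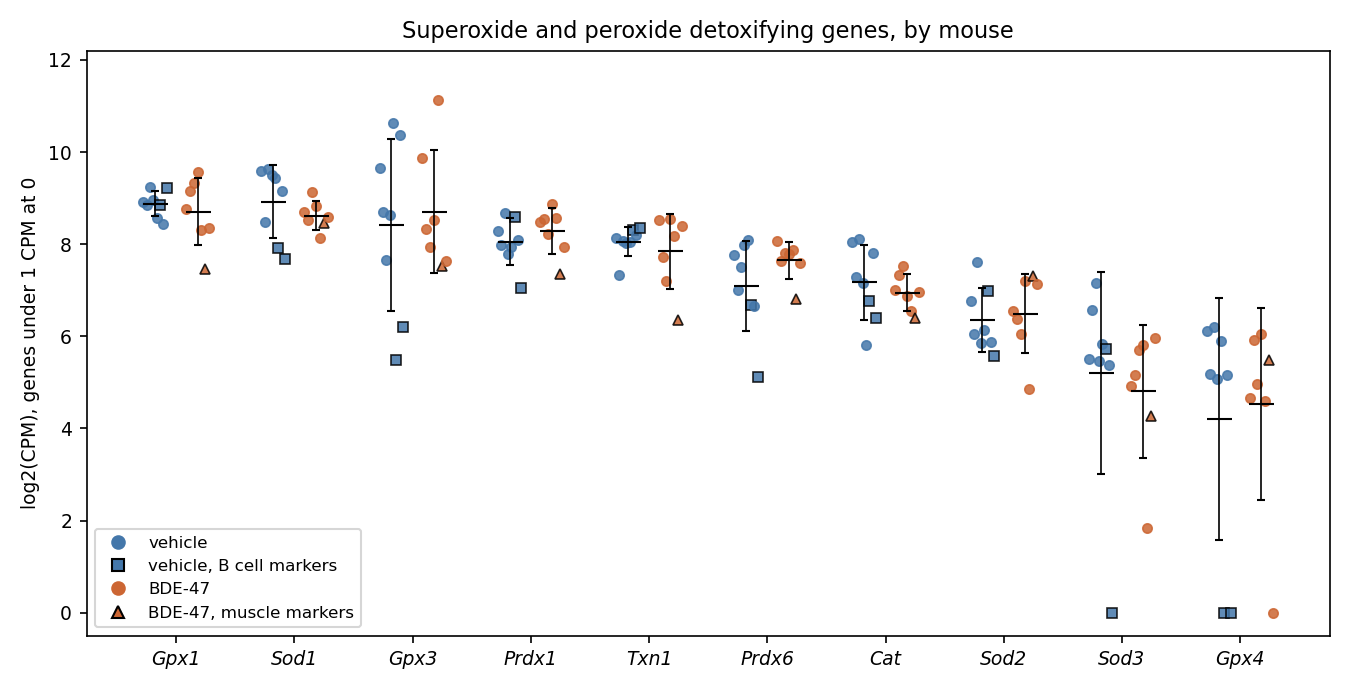
Level of each gene in each mouse, as log2(CPM) on the vertical axis with genes under 1 CPM at 0, for vehicle (blue, n = 8) and BDE-47 (orange, n = 7); bars are mean ± SD, squares are the vehicle mice with B cell markers and triangles the BDE-47 mouse with muscle markers. The groups overlap for all 10 genes, Gpx3 spreads most among the 8 genes above the floor in every mouse, and the values at 0 belong to Sod3 and Gpx4.

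Among the superoxide dismutases, Sod1 encodes the copper- and zinc-dependent enzyme of the cytosol (GRCm38, chr16:90220762-90226333). In vehicle mice its level ran from 7.68 through a median of 9.30 to 9.64 log2(CPM), and in BDE-47 mice from 8.13 through a median of 8.58 to 9.13. All 7 BDE-47 mice lay below the vehicle median, but the groups overlapped. The 2 vehicle mice with B cell markers held the lowest levels of all, 7.92 and 7.68, and vehicle replicate 2, at 8.48, also lay below 5 of the 7 BDE-47 mice. The mean was 8.93 ± 0.79 log2(CPM) (SD, n = 8) with vehicle and 8.62 ± 0.31 (SD, n = 7) with BDE-47, a log2 difference of -0.31 with a standard error of 0.33 (exact permutation test, two-sided, p = 0.345; limma adjusted p = 0.982). The 95% confidence interval of the fold, BDE-47 over vehicle, was 0.51 to 1.29.

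At an unadjusted p only, the Sod1 mean was lower with BDE-47 once the 2 vehicle mice with B cell markers were left out. These mice held the lowest Sod1 levels and were picked by marker levels in these data. The means were then 9.30 ± 0.43 log2(CPM) (SD, n = 6) and 8.62 ± 0.31 (SD, n = 7), a log2 difference of -0.68 with a standard error of 0.29 (exact permutation test, two-sided, p = 0.0111). In limma over all 9506 genes the unadjusted p was 0.0221 and the adjusted p was 0.991, and 2.85% of all genes tested were called lower at an unadjusted p under 0.05 in these 13 mice. Leaving out the BDE-47 mouse with muscle markers as well, a choice made after seeing the data, gave a log2 difference of -0.66 (exact permutation test, two-sided, p = 0.0238; limma adjusted p = 0.968). In the 12 mice 2.49% of all genes tested were called lower at an unadjusted p under 0.05, and 0.021% (2) passed the adjusted p, none of them of the set. Sod1 was the only 1 of the 10 genes with an exact p under 0.05 in either set of mice. Without the vehicle mice with B cell markers 7 of the 10 genes were lower with BDE-47, against 53.4% of all genes tested, and without all 3 mice 6 of 10, against 50% of all genes.

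Markers of adipocytes moved with this difference. Their summed level, over Adipoq, Plin1, Cidec, Lep, Fabp4, Cfd, Lpl and Pnpla2, ran from 12149 through a median of 29894 to 35327 CPM in the 6 vehicle mice and from 5395 through a median of 15866 to 18502 CPM in the 7 BDE-47 mice, a log2 difference in means of -0.95 (exact permutation test, two-sided, p = 0.0169), and all 8 markers had the lower mean with BDE-47. With all 15 mice the log2 difference of the sum was 0.28 (exact permutation test, two-sided, p = 0.739). The vehicle mice left out held the lowest sums of all, 556 and 1258 CPM, so the lower sum with BDE-47 rests on leaving them out.

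Sod1 followed the adipocyte markers mouse by mouse. Over the 12 mice that did not stand apart, Pearson's r between Sod1 and the log2 of the marker sum was 0.977 and Spearman's rho was 0.993 (permutation test, two-sided, p = 1e-05 for each, the smallest that 100000 resamples can give, and adjusted p = 0.0001 for each over the 10 genes). Without the 2 mice farthest from the median of the marker sum, r was 0.973. Within the 6 vehicle mice r was 0.991 and within the 6 BDE-47 mice 0.936. Among the single markers r with Sod1 ran from 0.15 for Lep to 0.96 for Lpl, and 7 of 8 were above 0.6. The sum was mostly Fabp4, Cfd and Lpl, with median shares of 46.4%, 32.5% and 10.8%, and Lep held 0.19%. Of 2570 genes above the floor in all mice and not on the marker list, Sod1 had the highest r with the marker sum, and the next was Cox6c at 0.920. All values of a mouse come from 1 library and are shares of the same total.

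With the adipocyte marker level as a term in limma, an alternative added after the relation was seen, the log2 difference of Sod1 was -0.40 with a standard error of 0.25 over all 15 mice (adjusted p = 0.945). It was -0.22 with a standard error of 0.33 without the vehicle mice with B cell markers (adjusted p = 0.964). Over the 12 mice it was -0.07 with a standard error of 0.29 (adjusted p = 0.980). Fewer adipocytes, less marker RNA per adipocyte and a lower Sod1 level within adipocytes cannot be told apart in these values. The marker level itself differed between the groups without the vehicle mice with B cell markers, so its term cannot separate them. In the 12 mice luminal epithelial markers ran from 645 to 2011 CPM with vehicle and from 1725 to 3070 CPM with BDE-47. Their part in the Sod1 values was not tested.

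None of the other 9 genes had an adjusted p under 0.05 in its relation to the adipocyte markers over the 12 mice. Their r ran from -0.22 for Prdx1 to 0.51 for Sod3, and the lowest adjusted p was 0.362 for Pearson's r and 0.490 for Spearman's rho (permutation tests with 100000 resamples).

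**Figure D2:**
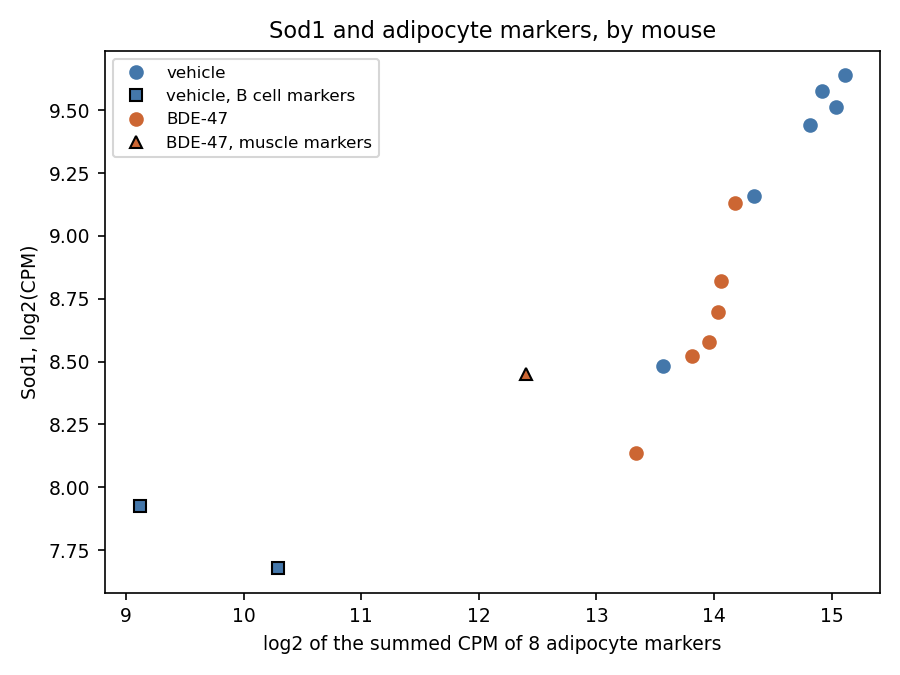
Sod1 level, as log2(CPM) on the vertical axis, against the log2 of the summed CPM of 8 adipocyte markers on the horizontal axis, 1 point per mouse (vehicle blue, BDE-47 orange). Among the 12 round points Sod1 rises with the marker sum (r = 0.977), and the 3 mice that stand apart lie at the lowest marker sums.

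Sod2, the manganese enzyme of the mitochondrial matrix (chr17:13007839-13018119), ran from 5.57 through a median of 6.09 to 7.61 log2(CPM) with vehicle and from 4.86 through a median of 6.55 to 7.30 with BDE-47. The groups overlapped over most of their range, and both the lowest value (BDE-47 replicate 5) and 3 of the 4 values above 7 belonged to BDE-47 mice. The log2 difference was 0.14 with a standard error of 0.47 (exact permutation test, two-sided, p = 0.733), and the 95% interval of the fold was 0.57 to 2.11. It was 0.11 without the vehicle mice with B cell markers and -0.02 without all 3 mice that stood apart.

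Sod3, the secreted enzyme that binds to the extracellular matrix (chr5:52363804-52369738), was listed at 0 in vehicle replicate 8 and ran from 5.37 to 7.15 log2(CPM) in the other 7 vehicle mice, with a median over all 8 of 5.61. In BDE-47 mice it ran from 1.83 through a median of 5.15 to 5.97. A single mouse in each group lay far below the rest, and 3 of 7 BDE-47 mice lay above the vehicle median. The difference, BDE-47 minus vehicle, was -0.39 on the log2 scale with a standard error of 0.78 (exact permutation test, two-sided, p = 0.670), and the share of mice above the floor, 7 of 8 against 7 of 7, gave p = 1 in Fisher's exact test. Without the vehicle mice with B cell markers the log2 difference was -1.18 (exact permutation test, two-sided, p = 0.0793), with means of 5.98 ± 0.72 (SD, n = 6) and 4.81 ± 1.44 (SD, n = 7), and it was -1.09 without all 3 mice.

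Sod1 made up most of the superoxide dismutase message, 57.5% to 89.6% of the summed CPM of the 3 genes in each mouse with a median of 77.0%. The median share was 17.0% for Sod2 and 6.97% for Sod3. Levels of different genes are compared here without division by transcript length, because a 3′ tag library yields about 1 read per transcript.

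Catalase, encoded by Cat (chr2:103453904-103485153), breaks hydrogen peroxide down in peroxisomes. Its level ran from 5.82 through a median of 7.22 to 8.12 log2(CPM) with vehicle and from 6.40 through a median of 6.96 to 7.52 with BDE-47. The BDE-47 values lay within the vehicle range, with a smaller SD of 0.39 (n = 7) against 0.82 (n = 8); the difference in spread was not tested. The difference in means was -0.23 on the log2 scale with a standard error of 0.41 (exact permutation test, two-sided, p = 0.515), and the 95% interval of the fold was 0.48 to 1.52. Without the vehicle mice with B cell markers it was -0.42 (exact permutation test, two-sided, p = 0.262), and without all 3 mice -0.33.

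Among the glutathione peroxidases, Gpx1 encodes the abundant intracellular enzyme (chr9:108339080-108340342). It ran from 8.44 through a median of 8.89 to 9.25 log2(CPM) with vehicle and from 7.47 through a median of 8.76 to 9.57 with BDE-47. The lowest value was that of the BDE-47 mouse with muscle markers, and the highest also belonged to a BDE-47 mouse. The log2 difference was -0.17 with a standard error of 0.32 (exact permutation test, two-sided, p = 0.560). It was -0.12 without the vehicle mice with B cell markers and 0.08 without the 3 mice that stood apart.

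Gpx3, the secreted glutathione peroxidase of plasma (chr11:54902854-54910387), was the most variable of the 8 genes above the floor in every mouse. Its level ran from 5.49 through a median of 8.66 to 10.64 log2(CPM) with vehicle and from 7.52 through a median of 8.33 to 11.12 with BDE-47. The 2 lowest values, 5.49 and 6.20, were those of the vehicle mice with B cell markers, and the highest was that of BDE-47 replicate 5. Its SD within groups of 1.64 was larger than that of 88.1% of the 2577 genes above the floor in all 15 mice, whereas that of Prdx1, 0.51, was larger than that of 4.46%, and that of Gpx1, 0.53, larger than that of 5.74%. On the log2 scale the difference was 0.29 with a standard error of 0.56 (exact permutation test, two-sided, p = 0.736), and it turned to -0.57 without the vehicle mice with B cell markers (exact permutation test, two-sided, p = 0.419) and to -0.37 without all 3 mice.

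The make-up of the glutathione peroxidase message differed widely between mice. Gpx3 held from 8.83% of the summed CPM of Gpx1, Gpx3 and Gpx4 in vehicle replicate 6 to 86.7% in BDE-47 replicate 5, with medians of 44.1% with vehicle and 37.6% with BDE-47. The summed CPM of all 10 genes ran from 1375 to 3884 per mouse, 0.137% to 0.388% of the reads. Gpx1 was the highest of the 10 genes in 6 mice, Gpx3 in 5 and Sod1 in 4.

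**Figure D3:**
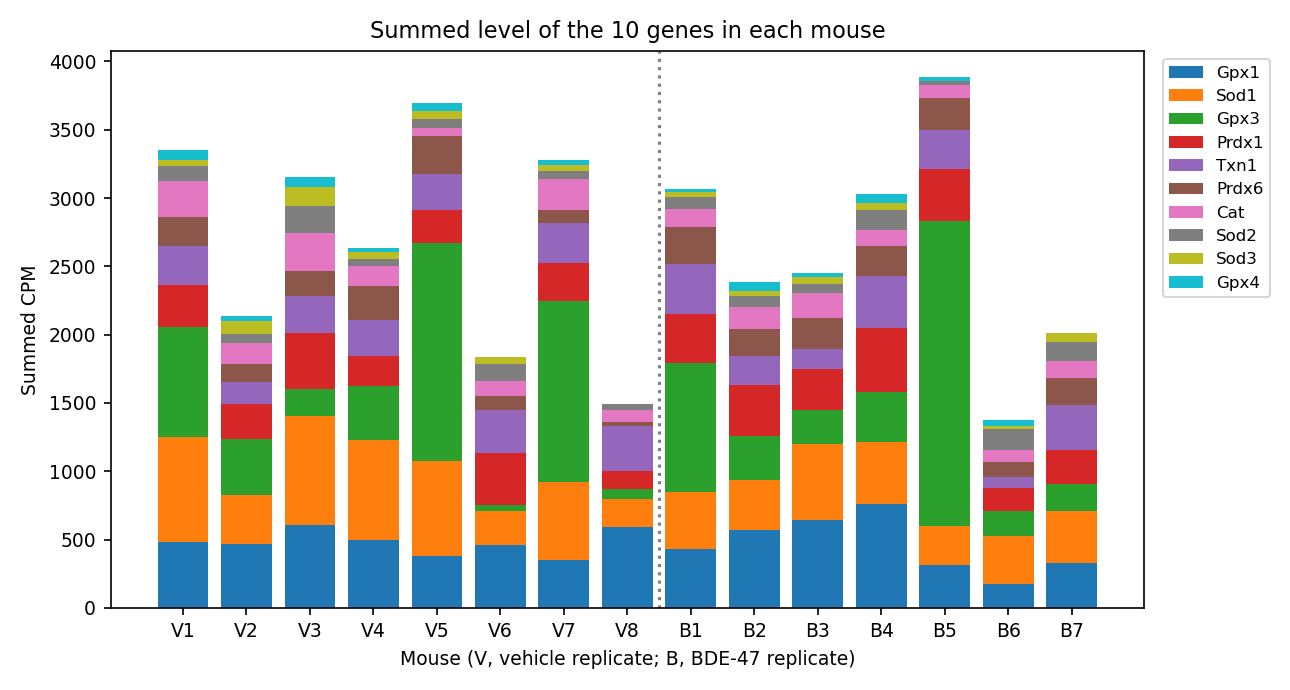
Summed CPM of the 10 genes in each mouse on the vertical axis, stacked by gene, for vehicle replicates V1 to V8 and BDE-47 replicates B1 to B7. The sum runs from 1375 to 3884 CPM, and Gpx3 (green) holds the widest range of shares, 2.44% to 57.5% of the sum.

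Gpx4 encodes the glutathione peroxidase that reduces lipid hydroperoxides in membranes and thereby restrains ferroptosis (chr10:80047166-80056439). It was listed at 0 in vehicle replicates 6 and 8 and in BDE-47 replicate 7, and ran from 5.08 to 6.20 log2(CPM) in the other 6 vehicle mice and from 4.59 to 6.06 in the other 6 BDE-47 mice. Apart from the zeros the groups overlapped, with medians over all mice of 5.17 with vehicle and 4.97 with BDE-47. The difference in means was 0.32 on the log2 scale with a standard error of 0.96 (exact permutation test, two-sided, p = 0.917), and the share of mice above the floor, 6 of 8 against 6 of 7, gave p = 1 in Fisher's exact test. Without the vehicle mice with B cell markers it was -1.08 (exact permutation test, two-sided, p = 0.230), and without all 3 mice -1.24.

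The Gpx4 value is uncertain, because reads were also listed under its processed pseudogene Gpx4-ps2 (chr10:45875290-45876066). The 555-base transcript Gpx4-ps2-201 aligned to Gpx4-202 from base 184 with 553 identical bases, and the 221 bases that follow it in the genome were identical to the rest of Gpx4-202. Over all 776 bases 774 matched (99.7%), and the last 300 bases, in which 3′ reads start, held 1 mismatch. The 2 mismatches, counted from the 5′ end of Gpx4-202, were C348T and C663T, and the stretches around them are shown with the differing base in capitals.
Gpx4-202 at C348T: tgcatcgtcaccaaCgtggcctcgcaatg
Gpx4-ps2-201 at C348T: tgcatcgtcaccaaTgtggcctcgcaatg
Gpx4-202 at C663T: ctcattgataagaaCggctgcgtggtgaa
Gpx4-ps2-201 at C663T: ctcattgataagaaTggctgcgtggtgaa

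Gpx4-ps2 was above the floor in all 15 mice, from 5.52 to 7.30 log2(CPM), also in the 3 mice where Gpx4 was listed at 0. Gpx4 held 0% to 52.0% of the reads of the pair, with a median of 29.9%. With both entries summed, an alternative chosen after seeing the data, the level ran from 5.60 through a median of 6.98 to 7.80 log2(CPM) with vehicle and from 6.55 through a median of 6.85 to 7.34 with BDE-47. The log2 difference of the sum was 0.03 with a standard error of 0.41 (exact permutation test, two-sided, p = 0.933), and no mouse lay at 0. The sum turned to -0.31 without the vehicle mice with B cell markers (exact permutation test, two-sided, p = 0.224) and to -0.27 without the 3 mice that stood apart (exact permutation test, two-sided, p = 0.303).

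**Figure D4:**
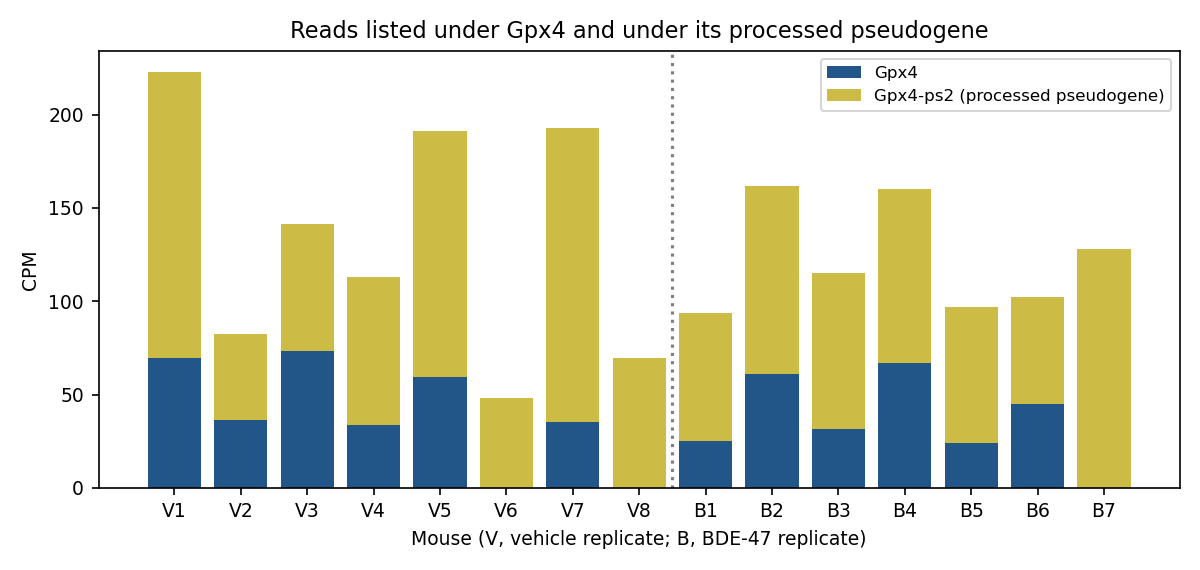
CPM listed under Gpx4 (blue) and under its processed pseudogene Gpx4-ps2 (yellow) on the vertical axis, stacked for vehicle replicates V1 to V8 and BDE-47 replicates B1 to B7. In V6, V8 and B7 no CPM is listed under Gpx4, while Gpx4-ps2 carries reads in all 15 mice.

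Among the thioredoxin-linked enzymes, Prdx1 encodes the main cytosolic peroxiredoxin with a pair of active cysteines (chr4:116685599-116700000). It ran from 7.05 through a median of 8.04 to 8.68 log2(CPM) with vehicle and from 7.35 through a median of 8.49 to 8.87 with BDE-47. The lowest value of each group was that of a mouse that stood apart, and 5 of 7 BDE-47 mice lay above the vehicle median. The log2 difference was 0.23 with a standard error of 0.34 (exact permutation test, two-sided, p = 0.396), and the 95% interval of the fold was 0.73 to 1.89. It was 0.15 without the vehicle mice with B cell markers and 0.31 without all 3 mice.

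Prdx6 encodes the peroxiredoxin that uses a single active cysteine and glutathione, and also has phospholipase activity (chr1:161240112-161251210). Its level ran from 5.11 through a median of 7.26 to 8.10 log2(CPM) with vehicle and from 6.81 through a median of 7.78 to 8.07 with BDE-47. Of the 7 BDE-47 mice 6 lay above the vehicle median, within the vehicle range, and the lowest value of all was that of vehicle replicate 8. The difference was the largest in size among the 10 genes, 0.56 on the log2 scale with a standard error of 0.41 (exact permutation test, two-sided, p = 0.189; limma adjusted p = 0.982). It was 0.15 without the vehicle mice with B cell markers (exact permutation test, two-sided, p = 0.592) and 0.29 without all 3 mice.

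Txn1, the cytosolic thioredoxin that reduces peroxiredoxins (chr4:57943373-57956411), ran from 7.33 through a median of 8.10 to 8.35 log2(CPM) with vehicle and from 6.35 through a median of 8.17 to 8.55 with BDE-47. The lowest value was that of the BDE-47 mouse with muscle markers, and the group medians lay close together. The mean log2 difference was -0.21 with a standard error of 0.36 (exact permutation test, two-sided, p = 0.546). It was -0.12 without the vehicle mice with B cell markers and 0.13 without the 3 mice that stood apart. Copies named after Prdx6, Prdx6b and Prdx6-ps2, were listed at 0 in all mice, and Txn-ps1 was above the floor in vehicle replicates 4 and 6 only, at 3.66 and 1.40 log2(CPM).

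**Figure D5:**
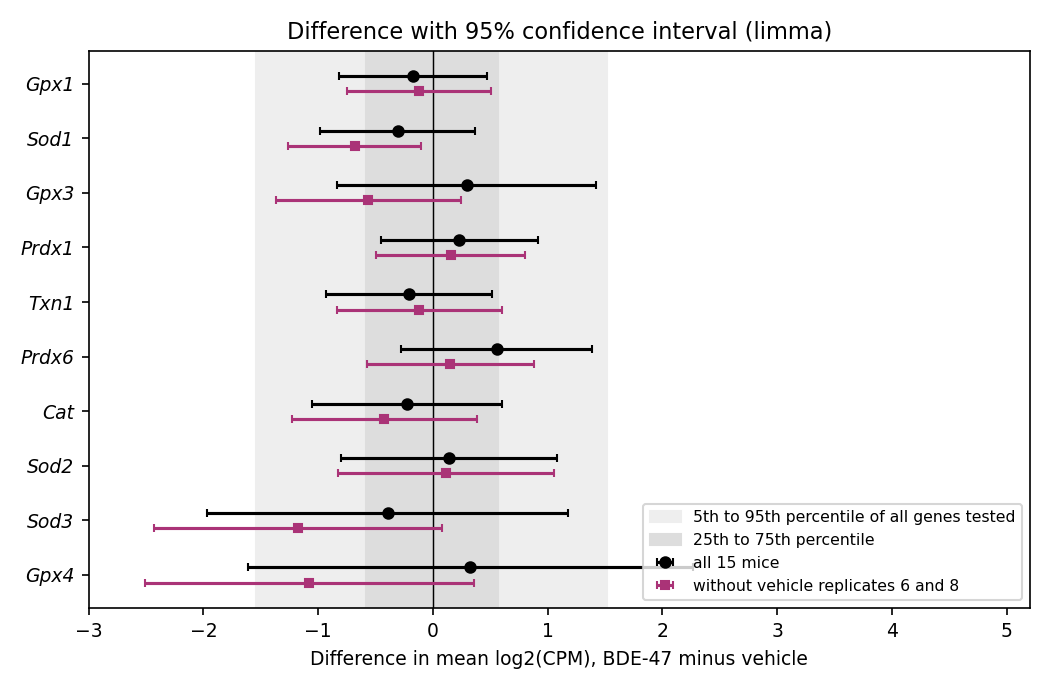
Difference in mean log2(CPM), BDE-47 minus vehicle, on the horizontal axis with its 95% confidence interval from limma, for all 15 mice (black circles) and without vehicle replicates 6 and 8 (purple squares); grey bands hold the middle of the differences of all 9506 genes tested. All 10 black intervals include 0, and among the purple intervals that of Sod1 does not.

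In order of mean level over the 15 mice the genes were Gpx1 (8.80 log2(CPM)), Sod1 (8.78), Gpx3 (8.55), Prdx1 (8.16), Txn1 (7.96), Prdx6 (7.36), Cat (7.07), Sod2 (6.42), Sod3 (5.02) and Gpx4 (4.36). No pair of neighbours in this order differed by more than the SD of their difference within mice. The clearest step lay between Sod2 and Sod3, where 14 of 15 mice held the order. The last place of Gpx4 rests on the reads listed under its own name.

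Relations between the 10 genes were computed over the 15 mice. Of 45 pairs, 39 had a positive Pearson's r, with a median of 0.24, and 0 passed an adjusted p of 0.05 (permutation tests, 100000 resamples), while 8 had an unadjusted p under 0.05. The share among pairs of other genes was not computed. The highest r was 0.67, between Sod1 and Gpx4 (Spearman's rho 0.64, adjusted p = 0.127 and 0.322). Over the 12 mice that did not stand apart that r was 0.40 and the median of the 45 was 0.16. No relation of a gene of the set to the number of genes above the floor passed an adjusted p of 0.05 (lowest adjusted p = 0.889 for Pearson's r and 0.871 for Spearman's rho, permutation tests).

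For 7 of the 8 genes above the floor in every mouse, the gene with the most similar pattern was sought among 2576 others by Pearson's r over the 15 mice, given here as a description. It was Pla2g16, an adipose phospholipase, for Sod1 (r = 0.928) and Glul, glutamine synthetase, for Gpx3 (r = 0.940). For Prdx6 it was Anxa1, annexin A1 (r = 0.937), for Txn1 Srsf1, a splicing factor (r = 0.866), and for Cat Lrrc58 (r = 0.827). Gpx1 was most like Rhoa (r = 0.839), a GTPase gene that ends 1136 bases from Gpx1 on chromosome 9. Sod2 was most like Pmpcb, a subunit of the mitochondrial processing peptidase (r = 0.802). Over the 12 mice that did not stand apart these 7 values were 0.62 to 0.89, lowest for Gpx1 and highest for Sod1.

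The antioxidant response element, the DNA sequence bound by the regulator NFE2L2, was searched by its core letters TGACNNNGC on both strands, from 250 bases before to 50 bases after each transcription start (RefSeq, GRCm38.p6). The search is shown because several of these enzymes are known NFE2L2 targets. The RefSeq promoters covered 8 of the 10 genes, and the letters were present in 2 of them, against 14.0% of 27025 genes and 12.4% of 32851 promoters. Sod3 and Prdx6 had no entry. In Sod1 the match began 56 bases before the start (chr16:90220706-90220714) and in Prdx1 133 bases before it (chr4:116685466-116685474), both on the strand opposite to the gene. The matched letters are in capitals, written on the strand of the gene.
Sod1: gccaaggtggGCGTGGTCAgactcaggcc
Prdx1: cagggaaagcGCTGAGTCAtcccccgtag

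The genes around these enzymes were taken from 6 lists that hold 125 genes, of which 95 were tested. Of these, 47 were higher with BDE-47 and 48 lower, 0 passed an adjusted p of 0.05 and 5 had an unadjusted limma p under 0.05, against 4.65% of all genes tested. The lowest adjusted p in every list was 0.982, that of the whole test. The values of genes named from here on are therefore descriptions.

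Other peroxide reducing enzymes were tested for 10 of 14 genes, 7 of them higher and 3 lower. Prdx2, a cytosolic peroxiredoxin, had a log2 difference of 0.46, and the mitochondrial Prdx3 and the widely distributed Prdx5 had differences of 0.04 and -0.01. Gsta4, a glutathione transferase for lipid peroxidation products, lay above the floor in 4 of 8 mice with vehicle and in 7 of 7 with BDE-47, and its log2 difference was 2.16 with a standard error of 1.11 (exact permutation test, two-sided, p = 0.0752). Prdx4, the peroxiredoxin of the endoplasmic reticulum, had a log2 difference of -0.98. It lay above the floor in 8 of 8 mice with vehicle and in 6 of 7 with BDE-47.

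Thioredoxin and glutathione recycling and synthesis was tested for 20 of 22 genes, 9 higher and 11 lower. Txnrd1, the cytosolic thioredoxin reductase, differed by -0.15 on the log2 scale and Gsr, glutathione reductase, by 0.54. For the subunits of the enzyme that starts glutathione synthesis the difference was -1.65 for the catalytic Gclc and 0.32 for the modifier Gclm. Gclc lay above the floor in 7 of 8 mice with vehicle and in 3 of 7 with BDE-47 (exact permutation test of the difference, two-sided, p = 0.0855). It was 0.21 for Srxn1, sulfiredoxin, which repairs oxidised peroxiredoxins. The smallest unadjusted limma p belonged to Glrx, glutaredoxin, at -1.79 (exact permutation test, two-sided, p = 0.0654), with 5 of 8 mice above the floor under vehicle and 3 of 7 under BDE-47. Next came Sesn2, a stress-induced sestrin, at -1.30, with 6 of 8 mice above the floor under vehicle and 2 of 7 under BDE-47. For Sesn2 the exact permutation test, two-sided, gave p = 0.0264, while limma gave an unadjusted p of 0.0589 and an adjusted p of 0.982.

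Enzymes that produce superoxide or hydrogen peroxide were tested for 12 of 26 genes, 5 higher and 7 lower. Cybb, the catalytic subunit of the phagocyte NADPH oxidase, ran from 1.92 through a median of 5.43 to 7.14 log2(CPM) with vehicle and from 0 through a median of 2.69 to 5.62 with BDE-47. Its log2 difference was -1.99 with a standard error of 0.84 (exact permutation test, two-sided, p = 0.0549), and that of Rac2, a GTPase that activates the same oxidase, was -2.63 with a standard error of 1.16 (exact permutation test, two-sided, p = 0.0646). The groups overlapped for both genes. Macrophage markers summed to 1563 and 2232 CPM in vehicle replicates 6 and 8, the mice with B cell markers, and to 129 to 918 CPM in the other vehicle mice. They summed to 151 to 637 CPM with BDE-47, and their part in these values was not tested. The differences of Cybb, Rac2 and the other genes of the lists are given with all mice only.

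Metal and selenium supply was tested for 18 of 21 genes, 10 higher and 8 lower. Slc39a14, a transporter that takes up manganese and zinc, lay above the floor in 3 of 8 mice with vehicle and in 5 of 7 with BDE-47, and its log2 difference was 2.73 with a standard error of 1.08 (exact permutation test, two-sided, p = 0.0252; limma adjusted p = 0.982). The copper importer Slc31a1 differed by -1.64 and Ccs, the copper chaperone of Sod1, by -0.97.

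Regulators of antioxidant genes were tested for 16 of 20 genes, 7 higher and 9 lower. Nfe2l2 differed by -1.18 on the log2 scale (exact permutation test, two-sided, p = 0.166), Keap1, its inhibitor, one of 0.53 (p = 0.296 in the same exact test), and Foxo3, a forkhead factor, one of 1.73 (p = 0.0789 in the same exact test). Peroxisome proteins were tested for 19 of 22 genes, 9 higher and 10 lower. Pex16, needed to form the peroxisome membrane, differed by 1.41 on the log2 scale (limma adjusted p = 0.982) and Pxmp4, a peroxisome membrane protein, by 1.28.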

How the data were processed

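RNA of 15 mice, 1 library each, was measured with QuantSeq 3′ FWD. The submitters' processing notes name STAR 2.5.3a and GRCm38. The authors normalized reads to CPM and deposited log2(CPM) values per gene, with genes under 1 CPM at 0, a floor read from the values. Whole multiples of 1 read in the low values (tolerance 0.02 reads, up to 5000 reads) gave the depth of each mouse. Each mouse had 52636 entries, and for a name listed more than once the first was kept, which left out 110.

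Groups came from the treatment labels. The study's methods adjust for a xenograft, which the labels do not give for each mouse, so no covariate was used. Genes that reached 1 CPM in 7 or more mice were fitted with limma 3.58.1 in R 4.3.3 (moderated variances, mean-variance trend), with Benjamini-Hochberg adjustment over 9506 genes. Single genes were tested with the exact permutation test over 6435 splits, two-sided, whose smallest p is 0.000155. Scripts were tested on simulated data. The 10 genes, the lists and the marker genes were chosen with earlier results of these data known. Named genes of the lists were those past an adjusted p of 0.05 or else the 2 with the smallest limma p, together with 11 genes set by name. The gene most like each of the 8 genes above the floor in every mouse was named by its Pearson's r, and that of Prdx1 is not reported here. Python 3.11.15, numpy 2.4.6, scipy 1.17.1, pandas 2.3.3 and matplotlib 3.10.9 were used.

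Alternatives were log2(CPM + 1), log2(CPM + 0.1), the replicate block, each mouse left out, size factors from the median of ratios, the vehicle mice with B cell markers left out, the ratio of mean CPM, the difference of medians, no filter, all mice above the floor and no trend. Chosen after seeing the data were leaving out the BDE-47 mouse with muscle markers as well, summing Gpx4 with its pseudogene, the relation of the 10 genes to the adipocyte markers and, for Sod1, that level as a term. The vehicle mice to leave out were picked by their marker levels in these data.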

Additional observations from a re-analysis of the deposited data

Results flagged for a closer look

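In 5 of the 20 sets formed by 1 gene and 1 treatment group, the lowest mouse lay further from its nearest neighbour than Dixon's 95% limit allows. For independent sets of normally distributed values chance alone gives this in about 1 of 20. That rate does not apply here, because values under 1 CPM are listed at 0 and the sets share mice. All 5 were low values. Sod3 was listed at 0 in vehicle replicate 8, where the next mouse had 5.37 log2(CPM), and was 1.83 log2(CPM) in BDE-47 replicate 5, where the next had 4.27. Gpx4 was listed at 0 in BDE-47 replicate 7, where the next mouse had 4.59 log2(CPM). Prdx6 was 6.81 log2(CPM) in BDE-47 replicate 6, the mouse with muscle markers, and the next had 7.60. Txn1 was 7.33 log2(CPM) in vehicle replicate 2, and the next had 8.02.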

How the results depend on the processing

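Of 234 alternative values of the 10 differences, 210 kept their direction and their side of the 0.05 threshold, 22 turned direction and 2 passed the threshold; the cause of a turn was not tested. The 2 were Sod1 without the vehicle mice with B cell markers (-0.68 on the log2 scale) and without these and the BDE-47 mouse with muscle markers (-0.66). Without the vehicle mice with B cell markers Gpx3 turned to -0.57 and Gpx4 to -1.08. Without all 3 mice Sod2 turned to -0.0206, Gpx1 to 0.0819, Gpx3 to -0.37, Gpx4 to -1.24 and Txn1 to 0.13. In that setting 2 of all genes passed the adjusted p, Wfdc18 (1.78 on the log2 scale), which is on the list of luminal epithelial markers, and Chchd2 (-1.48). The difference of medians turned Gpx3 to -0.33, Gpx4 to -0.19 and Txn1 to 0.0722, the ratio of mean CPM turned Gpx4 to -0.0899, and log2(CPM + 0.1) turned Sod3 to 0.0280. With the replicate block over 7 pairs, Gpx3 was -0.0243 and Gpx4 -0.28, and no other direction and no call changed. Replicate numbers were not taken to pair mice, since the correlation of same-numbered mice was -0.03 to 0.12 and 2 of 7 vehicle mice correlated best with their own number.

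When single mice were left out, the difference ran from -0.49 to -0.21 for Sod1, 0.0051 to 0.41 for Sod2, -1.14 to 0.10 for Sod3 (above 0 without BDE-47 replicate 5), -0.42 to -0.09 for Cat and -0.32 to 0.0322 for Gpx1 (above 0 without BDE-47 replicate 6). It ran from -0.13 to 0.61 for Gpx3 (below 0 without vehicle replicate 6, vehicle replicate 8 or BDE-47 replicate 5), -0.28 to 1.08 for Gpx4 (below 0 without vehicle replicate 6 or 8), 0.09 to 0.39 for Prdx1, 0.27 to 0.70 for Prdx6 and -0.33 to 0.0402 for Txn1 (above 0 without BDE-47 replicate 6). No gene of the set or of the lists passed the adjusted p in any of these fits. Size factors moved the median of all genes by 0.08 on the log2 scale. The log2 size factor was -0.57 in BDE-47 replicate 6, the mouse with muscle markers, and 0.0072 to 0.37 in the other mice. With size factors the difference of Prdx6 was 0.65 (exact permutation test, two-sided, p = 0.0704), and no gene of the set turned direction. Intervals are 95% confidence intervals of the difference in means, based on the spread between mice. True differences of any size inside an interval could not be set aside with 7 and 8 mice.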
